A study of Mus musculus with 4 samples.

Results

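The goblet cell mucus genes examined here were the 8 listed genes Muc2, Tff3, Agr2, Fcgbp, Zg16, Spink4, Clca1 and Ccn3, out of 32227 features, read in every deposited cell of 4 single-cell libraries. They were chosen by name as products of goblet cells, with earlier results of these data known. Each was found by its symbol in the feature lists, and together they held 59811 unique molecular identifiers (UMIs, each marking 1 captured RNA molecule) in 36202 cells.

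The libraries came from wild-type (WT) mice at postnatal day 6 (P6), of the strain C57BL/6J by the study's methods, with no treatment named. Epithelium was released from the jejunum and from the ileum of the same 2 mice, dissociated with dispase, and captured by PIP-Seq, a droplet method that uses templated emulsions. Ileum 1 and jejunum 1 were from the mouse of batch 1, and ileum 2 and jejunum 2 from the mouse of batch 2, so mouse and batch cannot be told apart and each region had 2 libraries. The released layer can still hold other cells of the gut wall.

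Goblet cells are secretory cells of the intestinal epithelium that fill their apex with mucus granules. The gel-forming mucin Muc2 is folded and assembled in the endoplasmic reticulum, heavily glycosylated in the Golgi, and expands after release into the layer that covers the villi. Goblet cells arise from crypt progenitors under the transcription factor Atoh1, a fate shared with enteroendocrine and Paneth cells, while most cells of the neonatal villus are absorptive enterocytes.

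Promoter sequence was at hand for 3 of the 8 genes, and it is shown to give a reader the sequence before the start of each. Each run is the 250 bases before the annotated start, 5′ to 3′ on the gene's strand, from RefSeq on the mouse build GRCm38.p6, which is not the build of the counts. Capitals mark CAGCTG (an E-box of the kind bound by factors such as Atoh1) and CCACCC or its reverse complement (a letter run bound by Klf factors).
Fcgbp, chr7:28070986-28071235, plus strand: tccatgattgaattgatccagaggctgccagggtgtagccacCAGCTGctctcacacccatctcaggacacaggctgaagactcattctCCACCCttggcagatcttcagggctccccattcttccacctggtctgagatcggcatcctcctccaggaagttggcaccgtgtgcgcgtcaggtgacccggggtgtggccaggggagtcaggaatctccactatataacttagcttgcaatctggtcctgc
Muc2, chr7:141690090-141690339, plus strand: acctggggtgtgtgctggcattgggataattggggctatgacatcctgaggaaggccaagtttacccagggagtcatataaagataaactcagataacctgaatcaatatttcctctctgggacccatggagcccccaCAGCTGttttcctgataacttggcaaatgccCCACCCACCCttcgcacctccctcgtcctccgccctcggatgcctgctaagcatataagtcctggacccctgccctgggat
Agr2, chr12:35992675-35992924, plus strand: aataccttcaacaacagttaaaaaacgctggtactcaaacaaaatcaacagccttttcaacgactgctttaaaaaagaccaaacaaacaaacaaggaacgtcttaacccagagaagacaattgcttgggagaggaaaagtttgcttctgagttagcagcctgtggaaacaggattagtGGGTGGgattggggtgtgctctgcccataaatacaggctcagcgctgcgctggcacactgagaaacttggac

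CAGCTG was present once in the Fcgbp window, 208 bases before the start, and once in the Muc2 window, 112 bases before the start. It was in 13.0% of 32851 promoter windows of the same length. CCACCC was found once in Fcgbp, once in Agr2 and in 2 overlapping copies in Muc2, and in 28.1% of all windows. TGTTTAC, the core of a forkhead (Fox) motif, matched none of the 3 windows and 3.17% of all windows, both strands being searched for every motif. These matches describe letters in a window and not bound sites.

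The depth of the libraries differed with region. The ileum libraries held 131400239 and 125067265 UMIs with medians of 15622 and 12544 UMIs per cell, and the jejunum libraries 64391480 and 57951874 UMIs with medians of 4275 and 4787. Mitochondrial genes took a median 3.36% and 3.54% of a cell's UMIs in ileum 1 and 2, and 7.09% and 11.8% in jejunum 1 and 2. Levels below are therefore given as CPM, a gene's UMIs scaled to the same total in every library or cell group, and shares of cells also after thinning to 2000 UMIs per cell. Thinning left out the cells with under 2000 UMIs, 56 in ileum 1, 359 in ileum 2, 1326 in jejunum 1 and 765 in jejunum 2. The 3′ UMI counts were not scaled by gene length, and a UMI count compares captured molecules. Xist reached 537 and 467 CPM in the libraries labelled Male but 0.712 and 0.984 CPM in those labelled Female, while the Y-linked Eif2s3y was at most 0.109 CPM in the former and at least 66.4 CPM in the latter, so both mice went against their sex labels. The 2 libraries of each mouse went together, and sex was used in no comparison. Pairs of libraries shared at most 1 cell barcode. By markers of their own, 5 or more of 8 enterocyte genes (Cubn, Amn, Dab2, Lct, Fabp2, Apoa1, Apob, Alpi) were detected in 92.1% to 94.7% of the cells of each library.

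The 8 genes were a minor part of the RNA, and Fcgbp and Tff3 made up most of it. In sum they were at 193 CPM in ileum 1, 163 in ileum 2, 124 in jejunum 1 and 104 in jejunum 2. Of their UMIs, 56.0% were Fcgbp. In a sum over a library, more cells of a type and more RNA per cell cannot be told apart.

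Of the gene for the gel itself, Muc2, all cells together held 11.6 CPM in ileum 1, 7.80 in ileum 2, 10.5 in jejunum 1 and 6.82 in jejunum 2. The levels of the regions overlapped, and the mice differed more than the regions did within either mouse. The log2 fold change of the ileum over the jejunum was 0.14 ± 0.27 (SE, 2 libraries per region, adjusted p = 0.754, edgeR quasi-likelihood test). Without ileum 1 it was -0.12 and without jejunum 2 -0.11.

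Fcgbp, the IgG Fc-binding protein that is a large constituent of secreted mucus, was at 121 and 109 CPM in the ileum against 38.0 and 25.1 CPM in the jejunum. The regions did not overlap, and the ileum was higher in both mice. The log2 fold change was 1.85 ± 0.21 (adjusted p = 0.0153), and 1.67 and 2.12 within the mice. Fcgbp was the most widely detected of the 8 genes, with UMIs in 13246 cells.

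Of the small secreted proteins, Tff3, the trefoil peptide packed with mucin, was at 48.0 and 37.4 CPM in the ileum against 52.4 and 47.0 CPM in the jejunum (log2 fold change -0.24 ± 0.15, adjusted p = 0.319). The regions overlapped for Tff3. Spink4, a Kazal-type protease inhibitor of goblet cells, was at 6.76 and 4.77 CPM in the ileum against 12.7 and 11.1 CPM in the jejunum. The 2 regions did not overlap, and the jejunum was higher by the test (log2 fold change -1.08 ± 0.20, adjusted p = 0.0336).

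The mucus-processing metalloprotease Clca1 was at 1.23 and 1.14 CPM in the ileum against 3.94 and 3.73 CPM in the jejunum, with no overlap. Its log2 fold change was -1.72 ± 0.21 (adjusted p = 0.0163). Agr2, the protein disulfide isomerase that mucin folding requires, was at 3.47 and 2.27 CPM in the ileum against 5.19 and 4.14 CPM in the jejunum, again without overlap (log2 fold change -0.73 ± 0.26, adjusted p = 0.124, and 0.0490 with the mouse as a block).

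Zg16, a lectin-like protein that binds bacterial cell walls, was uneven between the mice. It was at 0.639, 0.624 and 0.823 CPM in ileum 1, ileum 2 and jejunum 1 but at 6.38 CPM in jejunum 2, which held 370 of its 585 UMIs. Its log2 fold change was -2.55 ± 0.90 (adjusted p = 0.123), and -0.36 and -3.36 within the mice. Without jejunum 1 it was -3.38 with an adjusted p of 0.00656, a value that rests on jejunum 2 as the only jejunum library. Ccn3, a secreted matricellular protein, had 18 UMIs in 17 cells of all libraries (0.0381, 0.0160, 0.0777 and 0.104 CPM in the order ileum 1, ileum 2, jejunum 1, jejunum 2) and did not pass the filter on low counts.

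Between the regions, 3 of the 7 tested mucus genes were thus called, Fcgbp higher in the ileum and Spink4 and Clca1 higher in the jejunum, while 10.2% of 21147 tested genes were called in either direction. With the mouse as a block, Agr2 was added (4 of 7, against 20.3% of all genes). The 3 calls were the same when library sums were thinned to the smallest library. Leaving out 1 library, with 3 libraries remaining, ended many of them, and calls over all genes became fewer in each of these fits too. Without ileum 1 no mucus gene was called, with adjusted p-values of 0.0588 for Fcgbp, 0.0737 for Spink4 and 0.0713 for Clca1, and 4 of the 7 had an unadjusted p under 0.05. Spink4 was not called without any 1 of the other libraries (adjusted p 0.0856 without jejunum 1, 0.109 without ileum 2, 0.103 without jejunum 2), and Clca1 not without ileum 2 (0.0628) or jejunum 2 (0.0531). Spink4 was also not called when only cells with 1000 to 6000 genes and under 20% mitochondrial UMIs were kept (0.0640), or those with under 10% (0.0639). The direction of these 3 genes was the same in every setting.

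**Figure D1:**
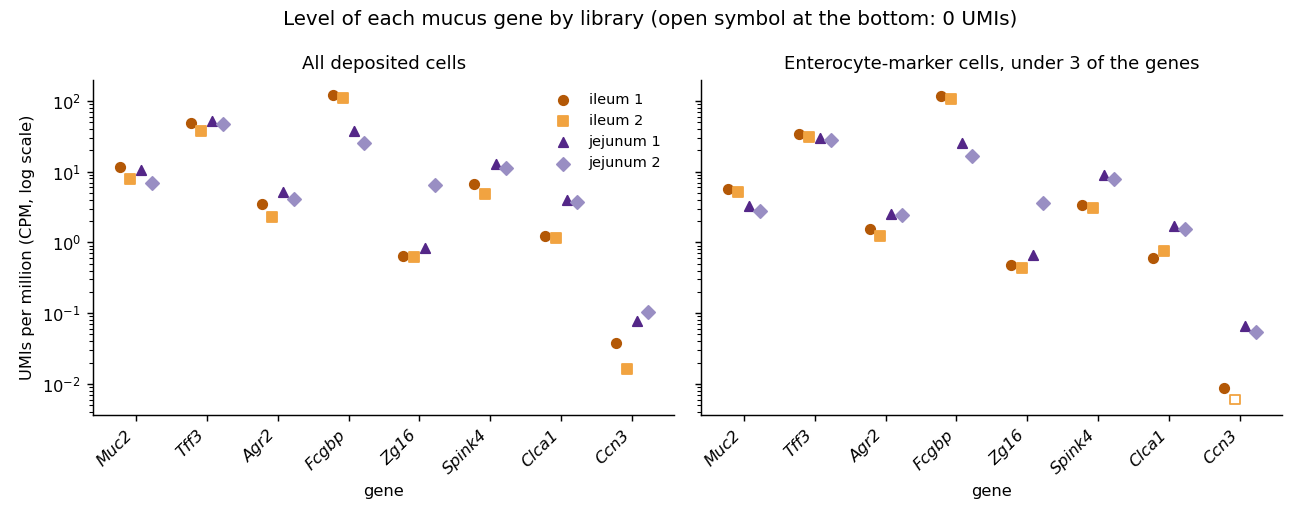
Level of each mucus gene in CPM (log axis), in all deposited cells (left) and in enterocyte-marker cells with under 3 of the genes (right), 1 symbol per library. In both panels the 2 ileum symbols of Fcgbp lie above the jejunum symbols, those of Spink4 and Clca1 lie below them, and Zg16 is high in jejunum 2 alone.

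Most mucus gene UMIs lay in cells that carried enterocyte markers. In enterocyte-marker cells with under 3 of the 8 genes (7684, 8777, 9267 and 6882 cells in ileum 1, ileum 2, jejunum 1 and jejunum 2) Fcgbp was at 116 and 107 CPM in the ileum against 25.3 and 16.6 CPM in the jejunum. A UMI of Fcgbp was found in 62.3% and 56.4% of the ileum cells and in 14.1% and 11.7% of the jejunum cells. At 2000 UMIs per cell the shares were 19.7%, 18.5%, 5.80% and 4.18%, so the order of the regions was the same at equal depth. The log2 fold change was 2.36 ± 0.22 (adjusted p = 0.0119).

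Cells with 3 or more enteroendocrine markers (the class set out further below), the hormone-producing cells of the epithelium, served as a second background in the same libraries. At 2000 UMIs a UMI of Fcgbp was in 8.0% of 75 such cells in ileum 1, 1.54% of 65 in ileum 2, 0 of 54 in jejunum 1 (which allows a share of up to 5.56%) and 4.76% of 42 in jejunum 2. Their median depth was 3189.5 to 5453 UMIs before thinning. The enterocyte-marker cells were above them in ileum 1 and ileum 2, close to the limit in jejunum 1, and at about the same share in jejunum 2, so the low Fcgbp of jejunum 2 was not told apart from this background.

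In the same enterocyte-marker cells Spink4 was at 3.37 and 3.03 CPM in the ileum against 8.83 and 7.94 CPM in the jejunum. Its unthinned shares of cells were alike (4.72%, 3.86%, 5.59% and 5.80%), and at 2000 UMIs they were 1.16% and 0.904% in the ileum against 2.42% and 2.42% in the jejunum. The log2 fold change was -1.44 ± 0.18 (adjusted p = 0.0175). Clca1 was at 0.598 and 0.743 CPM in the ileum against 1.72 and 1.53 CPM in the jejunum (log2 fold change -1.32 ± 0.27, adjusted p = 0.0432).

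Muc2 was at 5.73 and 5.23 CPM in the ileum against 3.32 and 2.74 CPM in the jejunum in these cells, without overlap. Its log2 fold change of 0.80 ± 0.20 had an adjusted p of 0.0627, and of 0.0395 with the mouse as a block. Tff3 was at 33.5 and 30.4 CPM in the ileum against 30.0 and 27.8 CPM in the jejunum (log2 fold change 0.09 ± 0.13, adjusted p = 0.683). Tff3 was thus the mucus gene whose regions lay closest together, with a UMI in 6.66% to 8.76% of the cells of each library at 2000 UMIs.

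Agr2 (1.57, 1.24, 2.49 and 2.42 CPM) and Zg16 (0.477, 0.441, 0.667 and 3.56 CPM) were not called there (adjusted p 0.0749 and 0.116). The high Zg16 of jejunum 2 was present in this background too, at 2.56% of cells against 0.410% to 0.703% in the other libraries, with up to 18 UMIs in 1 cell. Ccn3 had 8 UMIs in all these cells.

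In enterocyte-marker cells 3 of 7 mucus genes were called between regions, and 9.34% of 20674 tested genes. The block on the mouse gave 4 of 7, against 18.4% of all genes. Fcgbp was called in every setting. With 1 library left out, calls over all genes became fewer, except without jejunum 1. Clca1 was not called without any 1 of the libraries (adjusted p 0.146 without ileum 1, 0.0802 without jejunum 1, 0.0818 without ileum 2, 0.0920 without jejunum 2), and Spink4 not without ileum 1 (0.0587) or ileum 2 (0.0502). Clca1 also lost its call with the limits on genes and mitochondrial UMIs (0.0687), with under 10% mitochondrial UMIs (0.0704), with 7 of 8 markers required (0.0557) and with cells of 3 or more mucus genes kept (0.0577). Muc2 was called with those limits (0.0442), with under 10% mitochondrial UMIs (0.0437) and with cells of 3 or more mucus genes kept (0.0328). Zg16 was called without jejunum 1 (log2 fold change -3.03, adjusted p = 0.00340).

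A cell with UMIs of several mucus genes was uncommon. No mucus gene UMI was found in 15834 of the 36202 cells, 1 gene in 13300, 2 genes in 5739, 3 genes in 1138, 4 in 144, 5 in 18, 6 in 24 and 7 in 5. None had all 8. Cells with 3 or more of the genes numbered 734 in ileum 1 (8.19% of cells, exact Clopper-Pearson 95% interval 7.63% to 8.78%), 419 in ileum 2 (4.32%, 3.92% to 4.74%), 95 in jejunum 1 (0.950%, 0.769% to 1.16%) and 81 in jejunum 2 (1.07%, 0.854% to 1.33%). Intervals and limits from counts of 0 cover counting error only.

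The share of such cells averaged 6.25 ± 2.74% in the ileum against 1.01 ± 0.088% in the jejunum (SD, n = 2 libraries each). The ileum was higher in both mice, and the two-sided exact permutation test gave p = 0.333, the smallest that 2 against 2 libraries allow. After thinning to 2000 UMIs, with the shallower cells left out, the share was 0.595%, 0.268%, 0.334% and 0.280% in ileum 1, ileum 2, jejunum 1 and jejunum 2, and the regions overlapped.

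Most of the 1329 cells with 3 or more of the genes carried few mucus UMIs and many enterocyte markers. The median was 5 UMIs of the 8 genes in both ileum libraries and 4 in both jejunum libraries, and 1268 of the cells had 5 or more of the 8 enterocyte markers. Their median depth was 19814 UMIs in ileum 1, 18768 in ileum 2 and 6526 in jejunum 2, above the 15622, 12544 and 4787 of all cells there. In jejunum 1 it was 3872, below the 4275 of all cells. Of the mucus UMIs, such cells held 24.4% and 14.0% in the ileum against 39.1% and 36.6% in the jejunum, a mean of 19.2 ± 7.32% against 37.8 ± 1.78% (exact permutation p = 0.333, two-sided). So the ileum had more cells with 3 of the genes while the jejunum had more of its mucus UMIs in them.

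The share of a cell's UMIs that the 8 genes took was spread widely, with no gap at the 1% line used below. After this spread was seen, cells with 3 or more of the genes and at least 1% of their UMIs from them were called mucus-rich. There were 37 of them, 11 in ileum 1, 4 in ileum 2, 15 in jejunum 1 and 7 in jejunum 2. The 3 cells just inside the 1% line had 1.01%, 1.01% and 1.09%, and the 3 just outside 0.962%, 0.856% and 0.812%. The share of mucus-rich cells was 0.123% in ileum 1 (exact 95% interval 0.0613% to 0.220%), 0.0412% in ileum 2 (0.0112% to 0.106%), 0.150% in jejunum 1 (0.0840% to 0.247%) and 0.0929% in jejunum 2 (0.0373% to 0.191%), and these intervals overlapped. Since the 8 genes chose these cells, their levels there are a description.

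**Figure D2:**
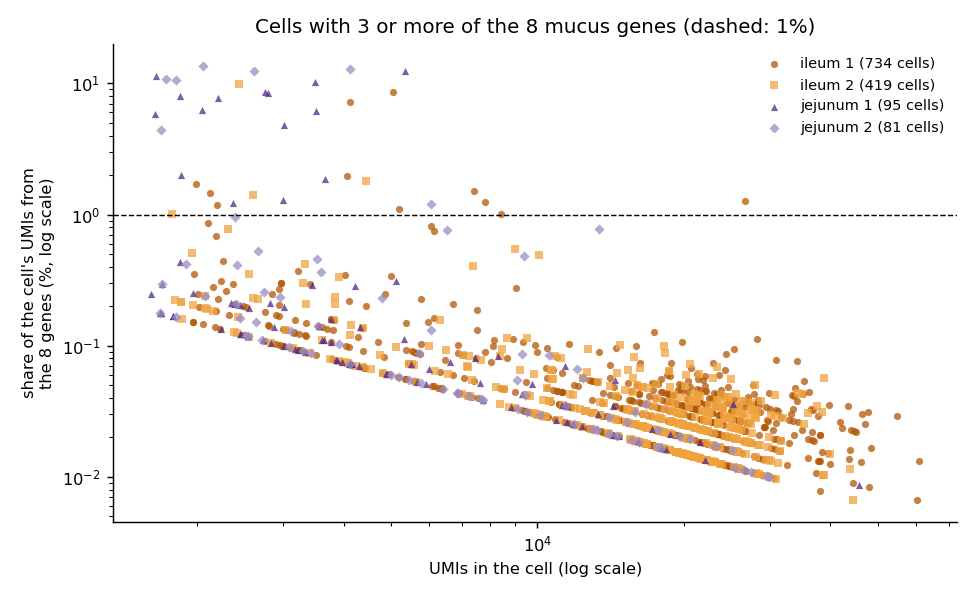
Each of the 1329 cells with 3 or more of the mucus genes, by the UMIs in the cell (x, log axis) and the percent of them that came from the 8 genes (y, log axis), coloured by library, with the 1% line dashed. Most cells follow falling lines of 3, 4 or 5 UMIs, and 20 cells lie at 4.45% to 13.6% with an empty stretch from 2 to 4% below them.

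Within the mucus-rich cells 2 ranges were seen. No cell had between 2 and 4%, 20 cells had 4.45% to 13.6%, and 17 had 1 to 2%. The upper range held 2 cells of ileum 1, 1 of ileum 2, 11 of jejunum 1 and 6 of jejunum 2, that is, 3 of 18662 ileum cells and 17 of 17540 jejunum cells, while the lower range held 12 ileum and 5 jejunum cells. All 20 cells of the upper range had UMIs of Muc2, Tff3, Fcgbp and Clca1, with medians of 37, 98, 55 and 9.5 UMIs. Agr2 was detected in 18 of them, Spink4 in 17, Zg16 in 7 and Ccn3 in 0.

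The upper cells were small in depth, with 1640 to 5351 UMIs and a median of 2532, and 6 of them, all from the jejunum, had under 2000 UMIs and were left out of the thinned shares. In the cells of 1 to 2%, the most frequent genes were Tff3 and Spink4, each in 17 of 17, with medians of 30 and 13 UMIs. Muc2 was in 11 of those cells with a median of 2 UMIs, Fcgbp in 12 with a median of 3, Clca1 in 10 with a median of 1, and Zg16 in 0. Of these 17 cells 10 had 5 or more enterocyte markers and 4 had 4 or more of 9 stem and progenitor markers. In the upper range 1 of 20 cells had 5 enterocyte markers and none had more than 1 stem and progenitor marker.

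The cell with the most Muc2 was from ileum 1 and held 166 UMIs of Muc2, 128 of Tff3 and 111 of Fcgbp among 5056. The cell with the most mucus UMIs was from jejunum 1 and held 666 of 5351, or 12.4%, with 117 of Muc2, 275 of Tff3 and 233 of Fcgbp. A cell of jejunum 2 with 12.9% of 4117 UMIs held 66 of Muc2, 188 of Tff3, 131 of Fcgbp, 56 of Zg16 and 44 of Clca1, the highest Zg16 and Clca1 of any cell. In these 3 cells Tff3 and Fcgbp each exceeded 100 UMIs.

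**Figure D3:**
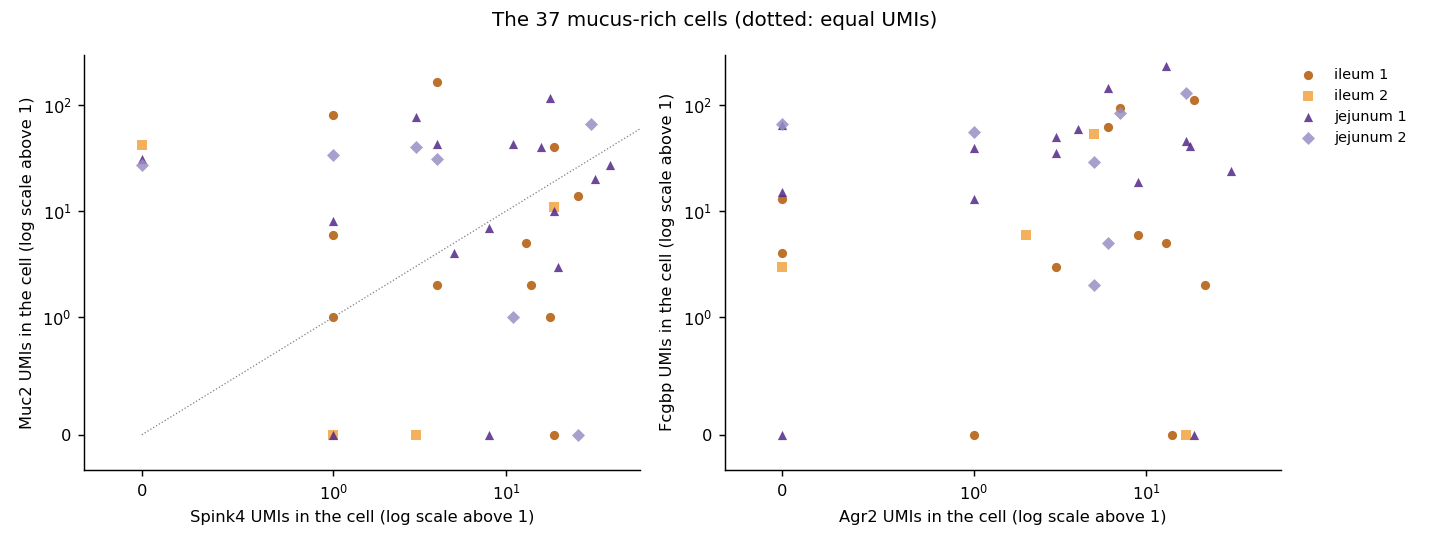
The 37 mucus-rich cells by UMIs of Spink4 and Muc2 (left) and of Agr2 and Fcgbp (right), 1 symbol per cell, on axes that are linear below 1 UMI and logarithmic above it, with equal UMIs of Spink4 and Muc2 dotted. In 17 cells Muc2 exceeded Spink4, in 19 Spink4 exceeded Muc2, and 1 cell lay on the line.

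The mucus-rich cells differed in which genes led. Muc2 exceeded Spink4 in 17 cells, 14 of which were among the 20 of the upper range. In these 17 cells 19.2% of the mucus UMIs were Muc2, 27.9% Fcgbp, 2.34% Agr2 and 2.51% Spink4. Spink4 exceeded Muc2 in 19 cells, where Muc2 was 6.24%, Fcgbp 13.0%, Agr2 10.1% and Spink4 16.8% of the mucus UMIs. The split used Muc2 and Spink4 themselves, and Agr2 and Fcgbp were not used in it. Agr2 and Fcgbp did help choose the 37 cells, and their percents are parts of a total that holds Muc2 and Spink4. In UMIs, the median of Agr2 was 6 in the 19 cells and 5 in the 17 cells. That of Fcgbp was 5 in the 19 cells and 62 in the 17 cells. The split was made after the values were seen and was not tested. The 19 cells with more Spink4 had a median of 2 of the 8 Paneth markers and up to 6 of them, while the 17 cells with more Muc2 had a median of 1 and up to 3. Cells with 3 or more Paneth markers numbered 4 in the former and 2 in the latter. In the former 4 cells had at least 4 stem and progenitor markers and 1 had at least 3 enteroendocrine markers, against 0 and 0 in the latter. Median depth was 3021 UMIs in the former and 2623 in the latter.

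Pooled over each library's mucus-rich cells, Muc2 was at 4235 and 4699 CPM in the ileum against 10462 and 9908 CPM in the jejunum. Tff3, the gene with the most UMIs in them, was at 9736, 18085, 27259 and 36993 CPM in ileum 1, ileum 2, jejunum 1 and jejunum 2. Fcgbp was at 3995 and 5585 CPM in the ileum against 19031 and 18571 CPM in the jejunum, the order opposite to that in enterocyte-marker cells. The jejunum values were the higher for each of these 3 genes, and the jejunum also had more of the cells above 4%.

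Agr2 was at 1252, 2128, 3034 and 2041 CPM in the mucus-rich cells of ileum 1, ileum 2, jejunum 1 and jejunum 2. Spink4 was at 1598, 2039, 4539 and 3784 CPM and Clca1 at 413, 975, 2743 and 4929 CPM in the same order. Agr2 overlapped between the regions, and Spink4 and Clca1 did not.

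Zg16 differed most between the libraries here too. It had 0 UMIs in the mucus-rich cells of ileum 1 and ileum 2, which allows up to 39.95 and 266 CPM, then 2 UMIs in 2 of 15 cells of jejunum 1 (48.5 CPM) and 134 UMIs in 5 of 7 cells of jejunum 2 (6672 CPM). Jejunum 2 therefore stood apart for Zg16 in mucus-rich and in enterocyte-marker cells alike. Ccn3 had 0 UMIs in all 37 cells, which allows up to 39.95, 266, 72.8 and 149 CPM in ileum 1, ileum 2, jejunum 1 and jejunum 2.

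To see a gene where it had no part in choosing the cells, mucus-rich cells were also picked with that gene left out. Muc2 was then at 5061, 4699, 10462 and 9908 CPM in 9, 4, 15 and 7 cells of ileum 1, ileum 2, jejunum 1 and jejunum 2, and was detected in 8, 2, 13 and 6 of them. Fcgbp was at 5026, 6314, 20138 and 18571 CPM, and Clca1 at 450, 975, 2847 and 4929 CPM. Without Tff3 the group was 3, 1, 12 and 6 cells, in all of which Tff3 was detected.

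The share of a gene's UMIs that lay in the 37 cells varied between genes and between libraries. Over all libraries it was 32.8% for Clca1, 27.98% for Muc2, 23.2% for Zg16, 21.6% for Agr2, 16.4% for Tff3, 13.8% for Spink4, 4.54% for Fcgbp and 0 for Ccn3. For Muc2 it was 20.8% in ileum 1 and 5.43% in ileum 2 but 63.6% in jejunum 1 and 50.4% in jejunum 2. For Fcgbp it was 1.88% and 0.461% in the ileum against 32.1% and 25.7% in the jejunum, and for Tff3 33.3% and 27.3% in the jejunum. The low share of Fcgbp was thus an ileum value, where most of its UMIs lay. For all 8 genes together the mucus-rich cells held 6.28% and 1.85% of the UMIs in the ileum against 34.7% and 27.5% in the jejunum.

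**Figure D4:**
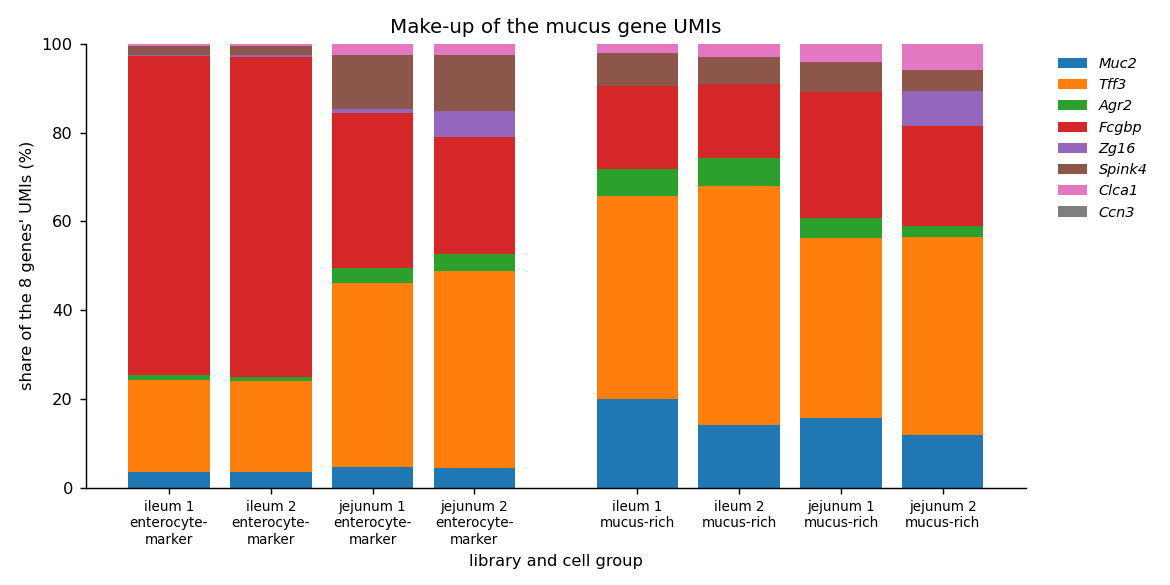
Percent of the 8 genes' UMIs that each gene made up, in enterocyte-marker cells with under 3 of the genes (left 4 bars) and in mucus-rich cells (right 4 bars), 1 bar per library. Fcgbp fills most of both ileum bars of the enterocyte-marker cells, while Tff3 is the widest band in every bar of the mucus-rich cells.

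The proportions of the genes to one another differed between the mucus-rich cells and the enterocyte-marker cells of the same library. For each UMI of Muc2, enterocyte-marker cells held 20.3 and 20.5 UMIs of Fcgbp in the ileum against 7.62 and 6.07 in the jejunum. Mucus-rich cells held 0.943 and 1.19 in the ileum against 1.82 and 1.87 in the jejunum. The ratio was thus higher in the enterocyte-marker cells of all 4 libraries.

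Tff3 showed 5.85, 5.81, 9.04 and 10.1 UMIs per Muc2 UMI in the enterocyte-marker cells and 2.30, 3.85, 2.61 and 3.73 in the mucus-rich cells, in the order ileum 1, ileum 2, jejunum 1, jejunum 2. Spink4 showed 0.589, 0.580, 2.66 and 2.89 against 0.377, 0.434, 0.434 and 0.382. Agr2 showed 0.274, 0.238, 0.750 and 0.881 against 0.296, 0.453, 0.290 and 0.206. For Agr2 the ileum values were lower in the enterocyte-marker cells and the jejunum values higher. The part of RNA free in the suspension in the levels of enterocyte-marker cells was not tested.

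Other cell types were compared by their own markers, a comparison added after the data had been seen. Cells were put in a class by 3 or more of 8 enteroendocrine markers (Chga, Chgb, Neurod1, Pax6, Cpe, Tph1, Isl1, Pcsk1n) or 4 or more of 9 stem and progenitor markers (Lgr5, Olfm4, Ascl2, Smoc2, Slc12a2, Mki67, Top2a, Stmn1, Pclaf), and mucus-rich cells were left out of each class. The enteroendocrine-marker class had 76, 68, 62 and 43 cells and the stem/progenitor-marker class 413, 339, 425 and 423 cells in ileum 1, ileum 2, jejunum 1 and jejunum 2. No mucus gene was a marker of either class, but the 8 genes defined the mucus-rich cells left out. This removed 3 stem/progenitor-marker cells of ileum 1 and 1 of jejunum 2, and 1 enteroendocrine-marker cell of jejunum 1.

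Tff3 and Agr2 were high in the enteroendocrine-marker cells. Muc2 had 12, 5, 1 and 0 UMIs in these cells and Clca1 3, 0, 0 and 1. As means of each region's libraries, Muc2 was at 23.6 CPM in the ileum and 2.38 in the jejunum. In the enterocyte-marker class it was at 7.88 and 3.55 CPM. Clca1 was at 3.59 and 2.16 CPM against 0.979 and 1.97 CPM. Tff3 was at 378, 619, 877 and 721 CPM in the enteroendocrine-marker cells and at 39.0, 33.1, 31.0 and 29.6 CPM in the enterocyte-marker class. At 2000 UMIs per cell, Tff3 was detected in 37.3%, 46.2%, 51.9% and 57.1% of the enteroendocrine-marker cells and in 6.98% to 9.63% of the enterocyte-marker class. The level did not rest on 1 cell, since the highest cell of each library held 28, 60, 26 and 21 of its 158, 167, 184 and 167 UMIs.

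Agr2 was at 35.9, 96.3, 129 and 99.3 CPM in the enteroendocrine-marker cells against 2.43, 1.61, 2.71 and 2.61 CPM in the enterocyte-marker class. Fcgbp was at 64.6, 18.5, 4.77 and 17.3 CPM against 122, 111, 26.5 and 18.8 CPM. Ccn3 had 1, 1, 1 and 2 UMIs in the enteroendocrine-marker cells, 5 of its 18 UMIs in 249 of 36202 cells. Tff3 and Agr2 were thus higher than in the enterocyte-marker class in every library. Fcgbp was lower in ileum 1, ileum 2 and jejunum 1. In jejunum 2 Fcgbp was at about the same level in both classes (17.3 against 18.8 CPM). The jejunum enteroendocrine-marker cells held 5 UMIs of Fcgbp in 105 cells, too few to tell a small difference.

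With the library as a block, edgeR called Tff3, Agr2 and Fcgbp between the enteroendocrine-marker and the enterocyte-marker class, where 35.3% of 17814 tested genes were called. Tff3 (log2 fold change 3.70 ± 0.25, adjusted p = 1.15e-20) and Agr2 (4.64 ± 0.35, adjusted p = 1.57e-18) were higher, and Fcgbp was lower (-1.83 ± 0.32, adjusted p = 3.47e-06). Muc2 (0.67 ± 0.54), Spink4 (0.78 ± 0.50), Clca1 (0.80 ± 0.99) and Zg16 (-0.11 ± 1.25) were not called, and Clca1 was -0.80 without ileum 1. Ccn3 entered the fit only through the small enteroendocrine-marker sums, where 1 UMI is a high CPM, so its call is not read, and it did not pass the filter on low counts when any 1 library was left out. Fcgbp was not called without the block (-1.62 ± 0.72, adjusted p = 0.107).

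In the stem/progenitor-marker class Agr2 was at 7.86, 8.84, 5.38 and 6.96 CPM, above the enterocyte-marker class in each library (log2 fold change 1.13 ± 0.29, adjusted p = 0.00775). Fcgbp was at 49.6, 36.1, 13.9 and 13.9 CPM and lower (-1.61 ± 0.17, adjusted p = 2.62e-05). Spink4 was at 13.8, 17.0, 10.8 and 17.1 CPM (0.62 ± 0.28, adjusted p = 0.0880), and its adjusted p was 0.0196 without jejunum 1 and 0.0277 with the mucus-rich cells kept. These were 2 of 7 mucus genes called, where 52.1% of 19648 tested genes were called.

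**Figure D5:**
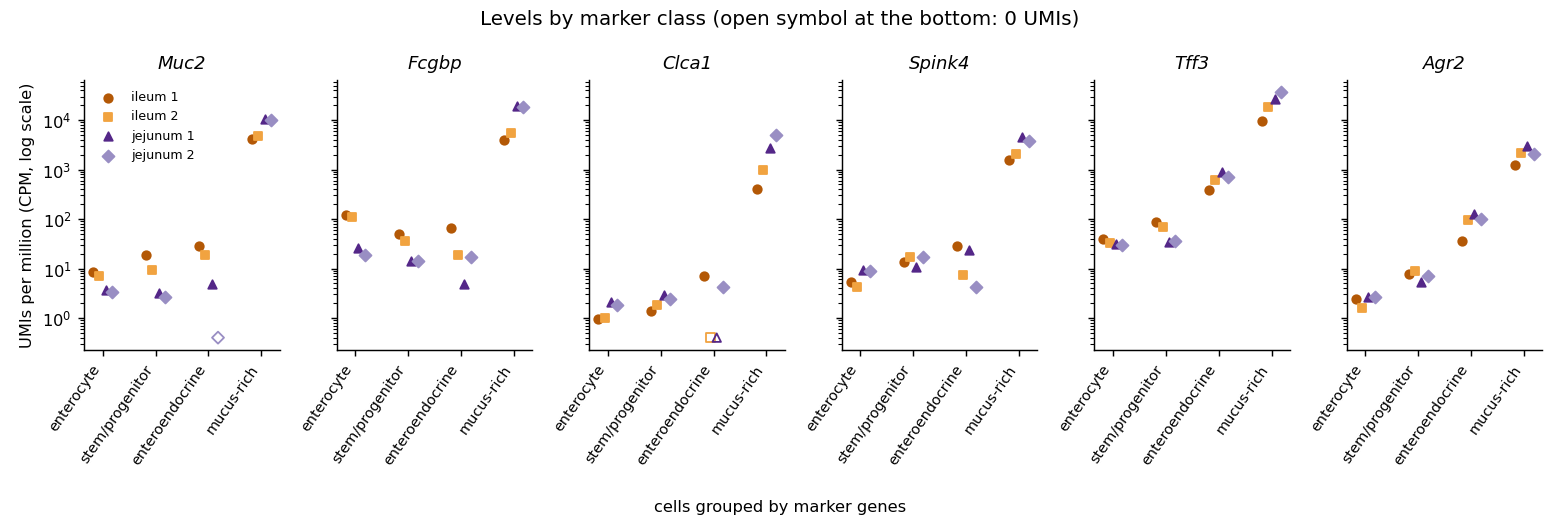
Level of 6 mucus genes in CPM (log axis) in cells grouped by marker genes, 1 symbol per library, with open symbols at the bottom for 0 UMIs. Tff3 and Agr2 are higher in enteroendocrine-marker cells than in enterocyte-marker cells in every library, Fcgbp is lower in them, and every gene is highest in the mucus-rich cells.

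The classes of other cells are given by their values, without a fit. Tuft-marker cells numbered 28, 12, 5 and 5 in ileum 1, ileum 2, jejunum 1 and jejunum 2 and had 0 UMIs of Agr2 in every library, which allows up to 4.51, 13.3, 42.8 and 45.01 CPM. Their Fcgbp was at 122, 79.7, 71.4 and 30.0 CPM, with medians of 21843, 17783, 15827 and 12450 UMIs per cell that exceeded those of the enterocyte-marker class. Immune-marker cells (8, 9, 17 and 9) had Fcgbp in 3, 0, 1 and 0 cells and Tff3 in 4, 3, 4 and 2 cells. Of the mucus-rich cells, 4 in jejunum 1 and 2 in jejunum 2 had 3 or more of the Paneth markers (Lyz1, Defa17, Defa21, Defa22, Defa24, Mmp7, Itln1, Pnliprp2), and 11 of the 37 had 5 or more enterocyte markers. Doublets, droplets that caught 2 cells, were not removed, and their part in cells that carry markers of several types was not tested.

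Genes that had no part in choosing the cells were then compared between the cells with 3 or more mucus genes and the enterocyte-marker cells with under 3, over 8 library sums with the library as a block. Of 92 tested genes in 5 lists of goblet cell biology, 23 were higher and 0 lower, while 0.806% of 18491 tested genes were called higher. At an unadjusted p under 0.05, 41 were higher and 9 lower, counts given without the share of all genes at that threshold. Some of the 23 were scarce in enterocyte-marker cells (Sval1 at 0.0403, Foxa2 0.118, Tpsg1 0.135 and Atoh1 0.155 CPM). Such genes could pass the filter on low counts through the small sums of cells with 3 or more genes. Sval1 did not pass it between regions in enterocyte-marker cells, so this count and those of each list below are a description. The cells with 3 or more genes had a higher median depth than all cells in every library except jejunum 1, as given above, and the part of depth was not tested. They include the 37 mucus-rich cells, which held 27 of their 35 UMIs of Tpsg1, 54 of 75 of Ern2 and 102 of 143 of Ccl6. For Qsox1 and Tnfaip8 the mucus-rich cells held less, 55 of 479 and 45 of 701. The cells with 3 or more genes that were not mucus-rich were not fitted on their own. Without the block, 0 genes of the lists and of the whole table were called, and 15 of the list genes and 248 genes in all had an unadjusted p under 0.05. The count of list genes was 13 without jejunum 1 (226 of all 18022 genes) and 12 without jejunum 2 (195 of 18551). By DESeq2 without its independent filtering it was 10 (47 of 18491).

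Of the transcription factors of the goblet lineage, 4 of 11 were higher, Atoh1, Spdef, Foxa2 and Foxa3 (list median log2 fold change 0.99, against -0.02 over all genes). Atoh1, the switch to the secretory fate, had a log2 fold change of 3.88 ± 0.59 (adjusted p = 3.17e-06), and 22 of its 26 UMIs in cells with 3 or more genes were in the 37 mucus-rich cells. Spdef, which drives goblet maturation, had 1.61 ± 0.42 (adjusted p = 0.0275), Foxa3 1.07 ± 0.27 (0.0213) and Foxa2 2.62 ± 0.71 (0.0375). The 4 members of the list with the most UMIs in these cells, Klf4 (0.22 ± 0.07, adjusted p = 0.0962), Xbp1 (-0.05 ± 0.07), Hes6 (0.05 ± 0.06) and Foxa1 (0.02 ± 0.09), were not called.

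Of other goblet cell markers 16 of 29 were higher, with a list median of 1.52. They included the calpains Capn8 and Capn9, the kallikrein Klk1, the antimicrobial ribonuclease Ang4, and Ramp1, Bcas1, Rep15 and S100a6. The markers with the most UMIs, Guca2a (0.25 ± 0.08, adjusted p = 0.0975), Tpd52 (-0.0027 ± 0.06), Tspan13 (-0.03 ± 0.06) and Smim14 (0.03 ± 0.07), were genes at 93.2 to 1461 CPM in enterocyte-marker cells, and none of them was called.

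Of the enzymes of mucin glycosylation 1 of 18 was higher, Gcnt3, which builds branched O-glycan cores (3.85 ± 0.48, adjusted p = 1.74e-08). St3gal1 (-0.13 ± 0.07), Gmds (-0.01 ± 0.07), Galnt7 (0.16 ± 0.07) and Galnt3 (0.17 ± 0.07) were not called. The list median was 0.12.

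Of the genes of secretory protein folding 2 of 24 were higher. They were Ern2, the endoplasmic reticulum stress sensor of mucus-making epithelia (3.98 ± 0.49, adjusted p = 1.11e-08), and the sulfhydryl oxidase Qsox1 (0.47 ± 0.12, adjusted p = 0.0260). The chaperones with the most UMIs, Calr (-0.15 ± 0.06), Hspa5 (-0.15 ± 0.06), Pdia3 (-0.12 ± 0.06) and Serp1 (-0.02 ± 0.07), were not called, and the list median was -0.04.

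Of other mucins and trefoil-related genes 0 of 10 were called by edgeR and 0 by DESeq2 without its independent filtering, with 2 higher and 2 lower at an unadjusted p under 0.05. The membrane mucins Muc13 (-0.06 ± 0.06) and Muc3 (0.17 ± 0.07) and the secreted Lypd8 (-0.15 ± 0.07) and Dmbt1 (-0.23 ± 0.10) had the most UMIs.

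The genes most alike in pattern to the mucus genes were the 10 with the highest log2 fold change called in this comparison, among 112 candidates. They were Mptx1 (4.74 ± 0.61), Clps (4.40 ± 0.48), Tpsg1 (4.30 ± 0.54), Ern2, Atoh1, Gcnt3, Fer1l6 (3.65 ± 0.45), Ccl6 (3.40 ± 0.40), Hgfac (3.33 ± 0.47) and Tac1 (3.33 ± 0.47). The adjusted p-values lay between 2.12e-10 for Clps and 3.17e-06 for Atoh1.

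Most UMIs of Mptx1 and Tac1 lay in 1 library, with 93 of 99 and 142 of 156 in ileum 1. Tpsg1, a membrane-bound tryptase, had 9, 8, 9 and 9 UMIs in ileum 1, ileum 2, jejunum 1 and jejunum 2. The cell sums behind these counts held 13756151, 7494344, 651814 and 744016 UMIs in the same order. Like counts in the 2 regions are therefore not like levels. Clps, colipase, had 31, 9, 73 and 55 UMIs. The chemokine Ccl6 had 48, 14, 58 and 23.

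The mucus-rich cells are part of the cells in which these genes were picked, so their levels there are a description, given for the 8 that were also among the 10 highest in the mucus-rich cells. Pooled over libraries, Clps was at 962 CPM against 0.619, Ccl6 at 691 against 1.03, Fer1l6 at 555 against 0.690, Ern2 at 366 against 0.377 and Hgfac at 244 against 0.348. Gcnt3 was at 210 CPM against 0.219, Tpsg1 at 183 against 0.135 and Atoh1 at 149 against 0.155. S100a6, a calcium-binding protein, was at 1639 CPM against 7.43, while the chaperone Hspa5 was at 643 CPM against 996. In these 37 cells, a group defined after the values were seen, 46 of 91 tested list genes were called higher and 2 lower (Hspa5 and St3gal1) against the enterocyte-marker cells, where 2.41% of 17175 genes were called higher and the median over all genes was -0.91. Sval1, Gfi1 and Lrrc26 are in this count on 8, 2 and 3 UMIs and did not pass the filter between regions in enterocyte-marker cells, so the count is a description.

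Between the regions, the same 5 lists had 10 of 89 tested genes higher and 9 lower in the ileum in enterocyte-marker cells, where 9.34% of all genes were called (list median -0.10, all genes -0.02). Among them the glycosyltransferases C1galt1 (0.73, adjusted p = 0.0374) and Galnt3 (1.36, adjusted p = 0.0240) were higher in the ileum, and Galnt5 (-1.51, adjusted p = 0.0379) and St6galnac1 (-2.88, adjusted p = 0.0173) lower. Klf4 (0.65, adjusted p = 0.0431) and Foxa1 (1.06, adjusted p = 0.0198) were the transcription factors called, both higher in the ileum. The membrane mucin Muc3a was 3.62 higher on the log2 scale (adjusted p = 0.00876) and Guca2a, the guanylin precursor, 3.78 (adjusted p = 0.0334). Atoh1, Ern2 and Gcnt3 were not called between regions (-1.25, 0.08 and -0.42, with adjusted p-values of 0.165, 0.884 and 0.428).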

How the data were processed

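Cells of the P6 jejunum and ileum of 2 WT mice were counted with PIPseeker at level 3 by the authors, in 1 library per mouse and region. The deposited values are raw UMI counts per gene and called cell, not normalized, with GRCm39 named in the submitters' processing notes. The aligner version and annotation were not given in the sources used here. Library totals lay between 57951874 and 131400239 UMIs. The limits the study describes (1000 to 6000 genes, mitochondrial share under 20%) had not been applied to the deposited cells and were tried as an alternative. No doublet caller was run.

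All deposited cells entered the main analysis (Python 3.11.15 with pandas 2.3.3, scipy 1.17.1, numpy 2.4.6 and matplotlib 3.10.9). Counts were summed per library and cell group, low genes removed by filterByExpr, TMM factors computed, and the quasi-likelihood test of edgeR 4.0.16 in R 4.3.3 fitted over all genes with Benjamini-Hochberg adjustment at 0.05. DESeq2 1.42.0 was an alternative. The script was tested on simulated data. Log2 fold changes are the ileum over the jejunum, or the named cells over enterocyte-marker cells. For the enteroendocrine-marker and stem/progenitor-marker classes they are over the enterocyte-marker class. SE is the standard error of the fit.

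Libraries with the same number are from the same mouse by the series design, and their deviations from the region means correlated at 0.253 over genes in all cells and 0.283 in enterocyte-marker cells. The main region fit had no block. For single values per library, the exact permutation test enumerated the 3 splits of 4 libraries into pairs. Nothing states separate replication beyond the 2 mice, so the p-values of the region fits rest on 2 animals. With the library as a block, p-values measure how the difference between cell groups varied over 4 libraries of these mice. They do not measure the spread between animals. Symbols shared by more than 1 feature numbered 27.

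The mucus genes, cell markers and gene lists were chosen with earlier results of these data known. Named genes are the 8, the 4 of each list with the most UMIs in cells with 3 or more of the genes, and the 10 called genes with the highest fold change, at least 20 UMIs in those cells, a UMI there in each library and no gene-model symbol. Other genes were named after their values were seen.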

Additional observations from a re-analysis of the deposited data

How the results depend on the processing

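Under the planned and added alternatives, single mucus genes kept their direction and side of the threshold in 235 gene-by-setting results, lost the call in 21, gained it in 13 and reversed in 14. Only genes that were not called in the main comparison reversed. With 2 mice per region the count of called mucus genes rests on each library. Calls over all genes also became fewer when 1 library was left out, except in enterocyte-marker cells without jejunum 1. Against 3 called between regions, the count was 0 to 3 in all cells and 1 to 3 in enterocyte-marker cells when 1 library was left out. Without jejunum 1 it was 3 in both, with Zg16 called and Spink4 (all cells) or Clca1 (enterocyte-marker cells) not, so at most 2 of the main calls were kept. DESeq2 called 6 in enterocyte-marker cells, adding Muc2, Agr2 and Zg16, and 3654 of all 20674 genes, against 1931 in edgeR. The block on the mouse, a paired analysis, added Agr2 in all cells (-0.74, adjusted p = 0.0490) and Muc2 in enterocyte-marker cells (0.80, adjusted p = 0.0395) and changed no other call of a mucus gene between regions.

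The difference in the share of cells, ileum minus jejunum, was 5.24 percentage points for 3 or more genes and -0.0394 for mucus-rich cells, a group added after the data had been seen. The difference in the share of mucus UMIs in such cells was -18.7 points for 3 or more genes and 4.57 for 2 or more. Of the lists, 23 genes were higher in cells with 3 or more mucus genes, but 1 with 2 or more (54 of all 20318 genes called). The count was 37 with 4 or more (194 of 17865) and 13 against cells with 7 of 8 enterocyte markers (120 of 18021). Without 1 library it was 12 to 24, with 13 without jejunum 1 (226 of 18022) and 12 without jejunum 2 (195 of 18551). DESeq2 called 1 list gene and 15 of all 18491 genes. Its independent filtering left 16491 genes without an adjusted p, all 23 among them, of which 21 had an unadjusted p under 0.05. Without that filtering DESeq2 called 10 list genes and 47 of all genes. Without the replicate block edgeR called 0. With mucus-rich cells in place of those with 3 or more genes, the count was 46 of 91 and 45 with the cell filter too.

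Reversed values of single genes were Muc2 between regions in all cells without 1 library (-0.12 to 0.46), and in enteroendocrine-marker cells Zg16 (-0.11, and 0.32 in DESeq2) with -1.06 to 0.38 without 1 library and Clca1 with -0.80 to 1.31. In stem/progenitor-marker cells Muc2 (-0.14) was 0.14 without the replicate block and -0.52 to 0.072 without 1 library, Tff3 was -0.018 to 0.33, Zg16 -0.17 to 0.77 and Clca1 -0.063 to 0.11. The cause was not tested. Depth limits Ccn3, with 18 UMIs, and every level in the smaller cell groups.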
